A study of Mus musculus with 4 samples.

Results

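Lpp and the proteins most like it form a small group of LIM domain adaptors, and 6 of their genes were described here: Lpp, Zyx, Trip6, Limd1, Ajuba and Fblim1. Lpp was chosen by its difference between the 2 groups compared here, among the largest falls in the deposited values, and the other members were taken as its family. The platform's gene table paired them with 8 transcript clusters, of 21789 clusters with exactly 1 gene symbol (19938 genes). Lpp had 3 clusters and each other member had 1, and no cluster with several symbols held a member. Wtip, the remaining mammalian protein of the zyxin family, was added for comparison.

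The values came from 4 whole-transcript Affymetrix arrays, 2 of Mbd4 KO cells and 2 of control cells. Both groups are of the CH12.F3 line, B lymphoma cells of the mouse that switch from IgM to IgA in culture. All had been kept in medium with 6% FCS and stimulated for 24 hours with IL4 at 5 ng/ml, TGFb at 0.2 ng/ml and CD40L at 25% by volume, so no array shows unstimulated cells. The labels name no knockout clone and call the samples independent without saying if they were separate cultures, so the p-values cover the spread between arrays only, and that spread may be technical. A difference may belong to the loss of Mbd4 or to another difference between these cells, and these cannot be told apart.

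Zyxin family proteins carry tandem LIM domains, zinc-binding modules through which they dock to other proteins. Zyxin, LPP and TRIP6 sit at focal adhesions, cell contacts and strained actin fibres, where zyxin and LPP bind alpha-actinin and the Ena/VASP proteins that promote actin filament growth. LIMD1, Ajuba and WTIP, the other branch of the family, and TRIP6 also bind and restrain the LATS kinases of the Hippo pathway. Migfilin, the product of Fblim1, links filamin and kindlin to the same structures. B lymphocytes grow in suspension, but use integrins and the actin cortex when they spread on and contact other cells.

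Mbd4, the gene of a base excision repair glycosylase with a methyl-CpG binding domain, had values of 6.47 and 6.49 (log2) in the Mbd4 KO arrays, against 8.74 and 8.77 in the control arrays, so the arrays ranked as labelled. The medians over all clusters of an array lay between 6.94 and 6.98. The 7 B cell markers measured (such as Cd79a, Pax5 and Ms4a1) had values from 10.40 to 12.68 in the Mbd4 KO arrays and from 10.37 to 12.56 in the control arrays. Among 22 measured markers of T, myeloid, stromal and epithelial cells, 15 in Mbd4 KO cells and 14 in control cells had means under these medians. A median has as many clusters under it as above it, and some of the markers were bright. Cd5 had means of 10.46 in Mbd4 KO and 10.45 in control cells, and Cd68 of 10.05 and 10.30. Limma called 0 of the 7 B cell markers and 0 of these 22, beside 1.39% of all clusters. An unadjusted p under 0.05 was found for 2 of the 7 and 5 of the 22, and for 13.8% of all clusters. The 2 B cell markers went opposite ways. Cd22 had a difference of 0.44 (log2, limma adjusted p = 0.0843) and Blnk of -0.28 (limma adjusted p = 0.15). In bulk RNA, fewer cells of a type and less RNA per cell cannot be told apart.

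Lpp encodes the lipoma-preferred partner, a scaffold first known from a gene fusion in human fatty tumours. Its 3 clusters went apart: 1 was far lower in Mbd4 KO cells, 1 was moderately lower, and 1 showed no separation of the groups. Since Lpp was picked for this contrast, its values are given as a description, with no p.

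In cluster 10434806, Lpp had 6.17 and 6.51 (log2) in the Mbd4 KO arrays, against 8.07 and 8.37 in the control arrays. The groups did not overlap, and the gap between them was several times the spread within either group. The means were 6.34 ± 0.24 in Mbd4 KO cells and 8.22 ± 0.22 in control cells (SD, n = 2 each), a difference of -1.88 ± 0.15 (log2, SE), or 3.68-fold lower. In each group array 2 read higher than array 1, and the difference ran from -2.05 to -1.71 with any 1 array left out.

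In cluster 10434782, Lpp had 6.19 and 6.29 in the Mbd4 KO arrays and 6.99 and 6.82 in the control arrays. The groups again did not overlap, but the gap was smaller. The difference was -0.66 ± 0.087 (log2, SE), or 1.58-fold lower, from means of 6.24 ± 0.076 in Mbd4 KO cells and 6.90 ± 0.12 in control cells (SD, n = 2 each). With any 1 array left out it ran from -0.75 to -0.58.

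In cluster 10434802, Lpp had 5.30 and 5.01 in the Mbd4 KO arrays and 5.01 and 5.15 in the control arrays. The groups overlapped, and the difference of 0.08 ± 0.11 (log2, SE) lay within the spread between arrays. It ran from -0.07 to 0.22 with any 1 array left out, so its sign was not settled. All its values were under the lower quartiles of the arrays, 5.63 to 5.64, where a change could go unseen. In the Mbd4 KO arrays the other 2 clusters also lay under the array medians, so the size of their folds is uncertain.

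The gene table, which can be old, ties the clusters to different transcripts. Cluster 10434806 is listed with 3 RefSeq transcripts alone, and cluster 10434782 with the same 3 and 6 further cDNAs. Cluster 10434802 is listed with 2 cDNAs and no RefSeq transcript, and 1 of these cDNAs is shared with cluster 10434782. The sources used here do not give which exons or introns of Lpp the probes read, so the 3 differences cannot be assigned to parts of the gene.

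**Figure D1:**
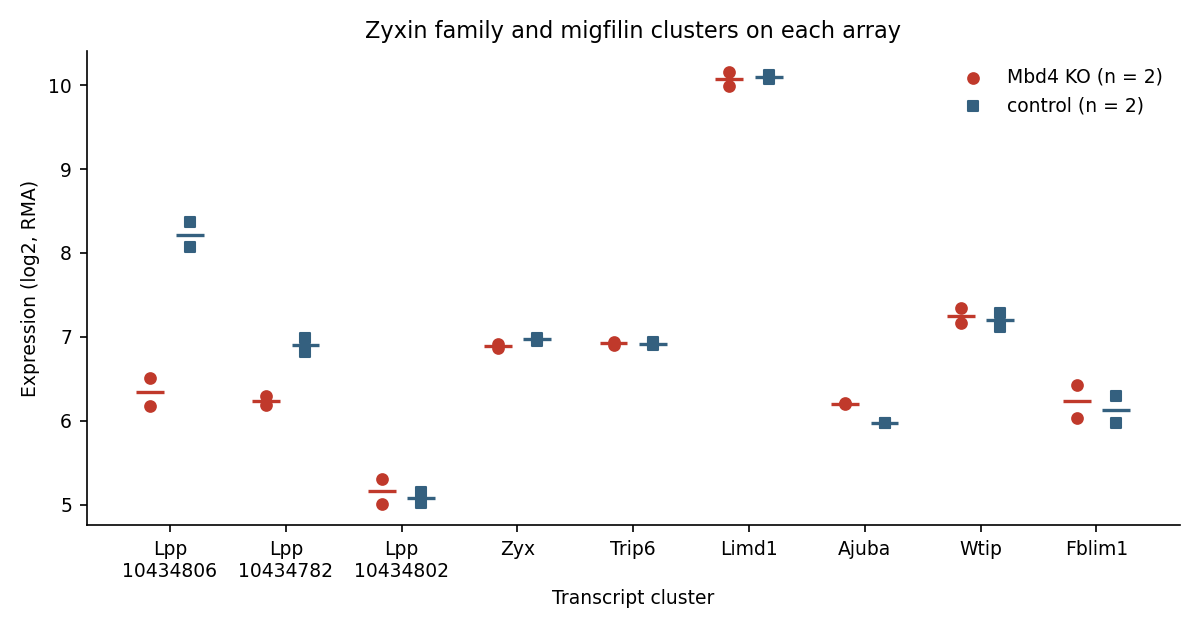
Expression (log2, RMA) of the 3 Lpp clusters and of the single clusters of Zyx, Trip6, Limd1, Ajuba, Wtip and Fblim1, with 1 point per array, Mbd4 KO circles left of control squares, and short lines at the means (n = 2 each). Clusters 10434806 and 10434782 of Lpp have Mbd4 KO values under both control values. So does Zyx, by a small margin, while Ajuba has Mbd4 KO values above both control values. In every cluster other than those of Lpp 10434806 and 10434782, the group means lie within 0.23 of each other.

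RefSeq places 2 transcription starts at Lpp, 1 at the start of the gene and 1 inside it. They are shown because the clusters of Lpp differed and the Mbd4 protein binds CpG sites. Each window runs from 250 bases before to 50 bases after the start (RefSeq, GRCm38.p6, plus strand), 5′ to 3′, with CpG dinucleotides in capitals.

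Lpp, start of the gene, chr16:24393100-24393399: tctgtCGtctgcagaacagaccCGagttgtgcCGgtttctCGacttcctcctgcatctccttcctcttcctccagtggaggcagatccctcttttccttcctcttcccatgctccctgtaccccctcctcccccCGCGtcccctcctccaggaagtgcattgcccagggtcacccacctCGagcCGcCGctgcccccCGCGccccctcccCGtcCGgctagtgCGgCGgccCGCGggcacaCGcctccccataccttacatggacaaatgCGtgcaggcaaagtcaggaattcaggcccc

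Lpp, internal start, chr16:24721605-24721904: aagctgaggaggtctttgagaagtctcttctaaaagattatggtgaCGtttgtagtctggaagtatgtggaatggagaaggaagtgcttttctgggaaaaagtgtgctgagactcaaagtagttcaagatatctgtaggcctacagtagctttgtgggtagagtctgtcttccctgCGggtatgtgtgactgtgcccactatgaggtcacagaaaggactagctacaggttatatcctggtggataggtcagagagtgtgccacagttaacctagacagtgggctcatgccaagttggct

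The window at the start of the gene holds 19 CpG dinucleotides (CG, which reads the same on both strands). At least as many are found in 28.1% of the 32851 promoter windows of the same length in the table, whose median is 7. The window at the internal start holds 2, and 85.9% of windows hold at least as many. For the other family members with a window, the counts were 18 for Zyx, 11 for Trip6, 13 for Ajuba, 39 for Wtip, and 8 and 13 for the windows of Fblim1. Limd1 had no window. No methylation was measured in these cells, and the arrays do not show which start was used.

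An intron of Lpp hosts Mir28a, whose hairpin gives the microRNAs printed here (RefSeq, GRCm38.p6, plus strand) with the seed, bases 2 to 8, in capitals. In human B cells miR-28 is known as a germinal centre microRNA that is lost in lymphomas. The arms have different seeds.

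mmu-miR-28a-5p, chr16:24827868-24827889: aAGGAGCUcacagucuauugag

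mmu-miR-28a-3p, chr16:24827908-24827929: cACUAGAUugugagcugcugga

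The Mir28a cluster had 4.66 and 4.29 (log2) in the Mbd4 KO arrays, against 4.51 and 4.38 in the control arrays. The groups overlapped, and the difference of 0.03 ± 0.13 (log2, SE; limma adjusted p = 0.954) did not pass. Its 95% interval ran from -0.29 to 0.35. All 4 values lay under the lower quartiles of the arrays, and a whole-transcript array does not tell mature microRNAs from their precursors, so a change in either could go unseen.

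The other members showed nothing of the size seen in Lpp. Limma (Benjamini-Hochberg adjustment over all 21789 clusters, threshold 0.05) called 2 of the 8 member clusters, both of Lpp, where it called 1.39% of all clusters; since Lpp was chosen for this contrast, nothing is read from that count. It called 0 of the 5 clusters of the other members, of which 1, that of Ajuba, had an unadjusted p under 0.05, as 13.8% of all clusters did. In 2 of these 5 the groups did not overlap, against 45.0% of all clusters.

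Zyx, the founding member and a sensor of strained actin fibres, had 6.87 and 6.92 (log2) in the Mbd4 KO arrays and 6.95 and 6.99 in the control arrays. The difference was -0.08 ± 0.067 (SE; limma adjusted p = 0.682), with a 95% interval from -0.24 to 0.09. Both Mbd4 KO values were under both control values, by a small margin.

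Trip6, named for binding thyroid hormone receptors, had 6.90 and 6.94 in the Mbd4 KO arrays and 6.94 and 6.90 in the control arrays. The groups overlapped fully. The difference was 0.00347 ± 0.067 (log2, SE; limma adjusted p = 0.99), with a 95% interval from -0.16 to 0.17. For Zyx and Trip6 these intervals leave out a change as large as those of Lpp clusters 10434806 and 10434782.

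In the LATS-binding branch, Limd1 had 9.99 and 10.15 (log2) in the Mbd4 KO arrays and 10.07 and 10.13 in the control arrays. The control values lay between the Mbd4 KO values, and the difference was -0.03 ± 0.082 (SE; limma adjusted p = 0.925; 95% interval -0.23 to 0.17). LIMD1 is also a part of P-bodies and of microRNA silencing complexes. Its cluster was the only one among the members with every value above the upper quartile of its array.

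Ajuba, an adaptor that also acts at cell junctions and in mitosis, had 6.21 and 6.19 in the Mbd4 KO arrays, against 5.97 and 5.97 in the control arrays. The groups did not overlap and the arrays within each group were close. The difference was 0.23 ± 0.065 (log2, SE), 1.17-fold, and did not pass (limma adjusted p = 0.207; 95% interval 0.07 to 0.39, not adjusted). Its values lay under the array medians.

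Wtip, first described as a partner of the Wilms tumour protein, had 7.34 and 7.16 in the Mbd4 KO arrays and 7.29 and 7.11 in the control arrays. The difference was 0.05 ± 0.097 (log2, SE; limma adjusted p = 0.87). Fblim1 had 6.43 and 6.03 in the Mbd4 KO arrays and 6.29 and 5.97 in the control arrays. Its difference of 0.10 ± 0.16 (log2, SE; limma adjusted p = 0.838; 95% interval -0.29 to 0.49) was the least precise of the family. In both genes the groups overlapped, and array 1 read higher than array 2 in each group.

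Lpp lies on chromosome 16, where most clusters had lower values in Mbd4 KO cells. The median difference over the 703 clusters of chromosome 16 was -0.14 (log2), against 0.02 over the 20995 clusters of the other chromosomes, whose own medians lay between -0.02 and 0.04 for the 19 with at least 100 clusters. Differences were below 0 in 70.6% of chromosome 16 clusters and in 41.5% of the others. Limma called 40 chromosome 16 clusters lower, 5.69% of them, and 1 higher. Over the 351 clusters of the chromosome with the higher mean values, the median was -0.28. This shift was known before the family was chosen.

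Cluster 10434806 of Lpp ranked 5th from the lowest of the 703, and lay at -1.74 (log2) from the median of the chromosome. Cluster 10434782 ranked 18th and lay at -0.52 from that median. Cluster 10434802 ranked 601st and lay at 0.22 from it, a distance that was 0.07 without Mbd4 KO array 1, 0.15 without control array 1, 0.29 without control array 2 and 0.36 without Mbd4 KO array 2. So 2 Lpp clusters were lower than the chromosome as a whole and 1 was not. Set against the brighter clusters of the chromosome, the 3 distances were -1.60, -0.39 and 0.35.

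The distances were also seen array by array. After each array's chromosome 16 median was taken away, cluster 10434806 stood at -1.06 and -0.71 in the Mbd4 KO arrays, against 0.63 and 0.98 in the control arrays. For cluster 10434782 the values were -1.05 and -0.92 in the Mbd4 KO arrays, against -0.45 and -0.57 in the control arrays. In both clusters the groups stayed apart. Cluster 10434802 stood at -1.93 and -2.21 in the Mbd4 KO arrays and at -2.42 and -2.24 in the control arrays, where the Mbd4 KO values were the higher ones.

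**Figure D2:**
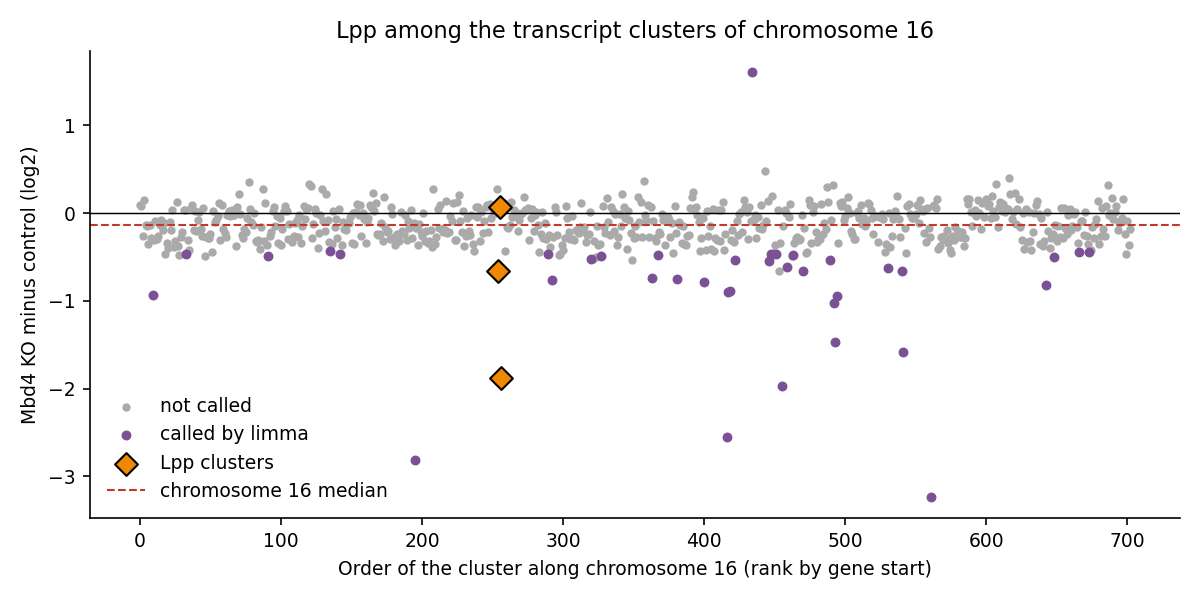
Difference of each of 703 transcript clusters of chromosome 16 (Mbd4 KO minus control, log2) in the order of their genes along the chromosome, with Lpp clusters as diamonds, clusters called by limma in purple and the median (-0.14) as a dashed line. The Lpp clusters at -1.88 and -0.66 lie below the bulk of the chromosome and the third, at 0.08, lies above the median.

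**Figure D3:**
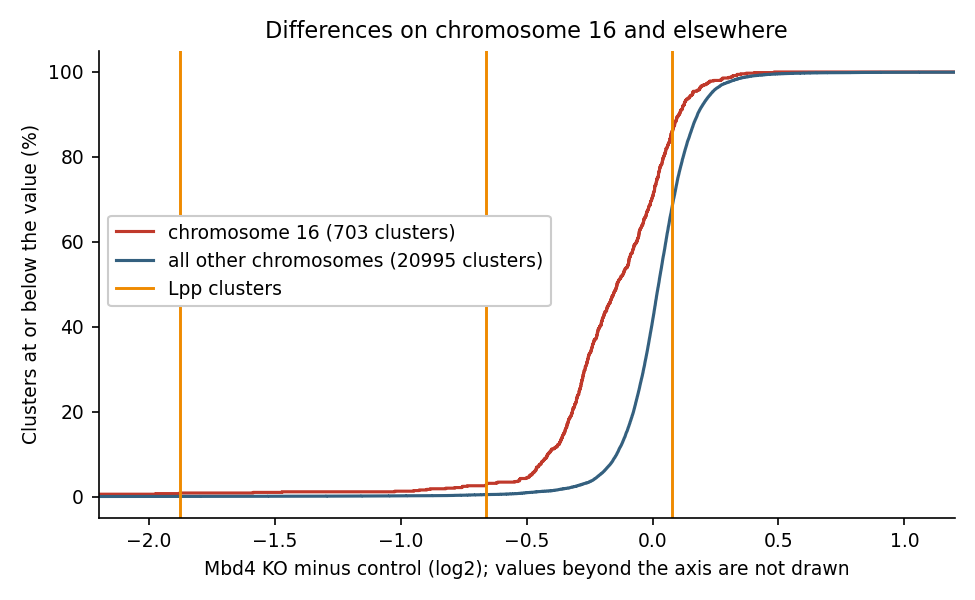
Share of clusters (%) at or below each difference (Mbd4 KO minus control, log2) for the 703 clusters of chromosome 16 and the 20995 clusters of the other chromosomes, with the Lpp clusters as vertical lines. The curve of chromosome 16 lies left of the other, and the Lpp line at -1.88 lies far out in the tail of both.

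None of the genes measured next to Lpp had a difference as large as those of clusters 10434806 and 10434782, although most of them were dim. The 5 nearest protein-coding genes with a cluster on either side, in the order of the RefSeq annotation, had differences from -0.43 to 0.27 (log2) with a median of -0.03, and 3 of the 10 lay below the chromosome's median. Limma called 0 of the 10, beside 1.39% of all clusters. An unadjusted p under 0.05 was found for 2 of them, Bcl6 and Trp63, and for 13.8% of all clusters.

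Bcl6, the repressor that drives the germinal centre programme and the nearest measured protein-coding gene on 1 side, had 5.67 and 5.59 in the Mbd4 KO arrays, against 5.37 and 5.35 in the control arrays. Both Mbd4 KO values were above both control values, and the difference of 0.27 ± 0.069 (log2, SE) went the other way from Lpp (limma adjusted p = 0.167). On the other side Tprg had 5.64 and 5.71 in the Mbd4 KO arrays and 5.55 and 5.58 in the control arrays, a difference of 0.11 (adjusted p = 0.539). Both were dim, under the array medians.

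Trp63, a p53-family transcription factor gene and the next along, had 9.12 and 9.16 in the Mbd4 KO arrays, against 9.53 and 9.60 in the control arrays, which were both higher. The difference of -0.43 ± 0.069 (log2, SE) missed the threshold by little (limma adjusted p = 0.0535). Trp63 passed with an intensity trend (0.00232), without the dimmest 30% of clusters (0.0194) or with cyclic loess normalization (0.0474). It did not pass with a robust prior (0.0559), quantile normalization (0.0555), the replicate number as a block (0.0892) or all clusters of the table (0.201). Of the 10 neighbours, 2 had means above the middle of the chromosome's clusters, and in the other 8 a change could go unseen.

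**Figure D4:**
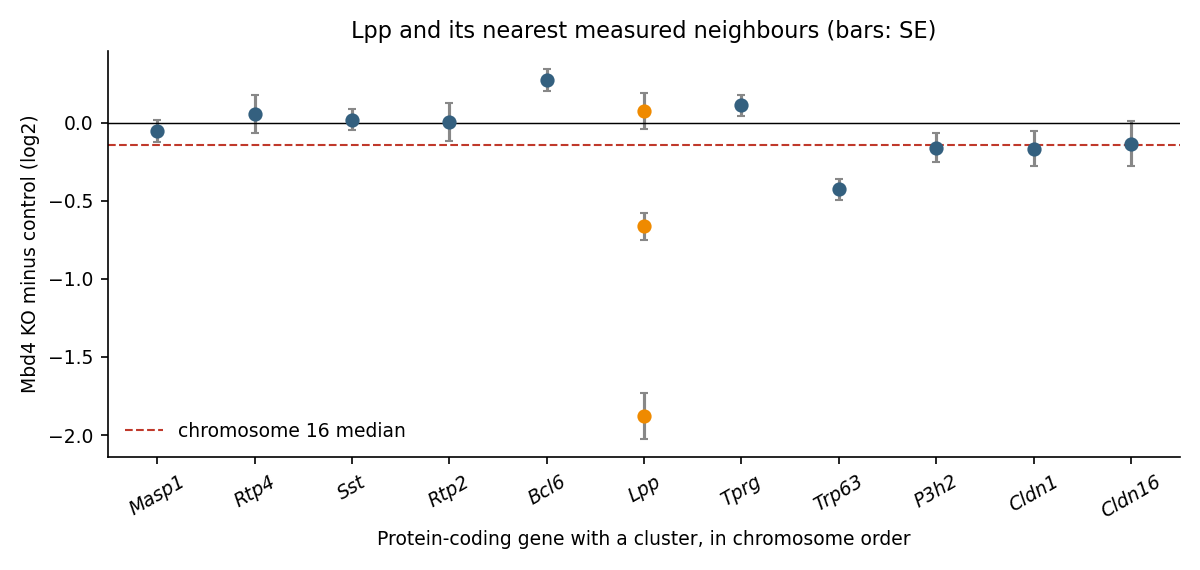
Difference (Mbd4 KO minus control, log2, with limma's SE as bars) of the 3 Lpp clusters, in orange, and of the 5 nearest measured protein-coding genes on either side, in blue, in chromosome order, with the chromosome 16 median (-0.14) dashed. The neighbours lie between -0.43 and 0.27, above Lpp clusters 10434806 and 10434782.

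Among chromosome 16 clusters, the 5 whose pattern over the 4 arrays was most like that of Lpp cluster 10434806 were those of Samsn1, Bbx, Gpr15, Cd200r1 and Cpox. Likeness was the Euclidean distance after each cluster's own mean was taken away, which over 4 arrays mostly follows the size of the difference. Samsn1, which encodes an SH3 adaptor that dampens B cell activation, was nearest at a distance of 0.31. It had 8.05 and 8.33 in the Mbd4 KO arrays, against 9.70 and 9.85 in the control arrays, and a difference of -1.59 (log2). The distances of the others were 0.38 for the HMG-box gene Bbx, 0.53 for the receptor gene Gpr15, 0.73 for the inhibitory receptor gene Cd200r1 and 0.88 for the haem synthesis gene Cpox. They were chosen for this likeness, so no test is given.

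Of the genes for direct partners of zyxin and LPP, both Ena/VASP genes other than Vasp itself were lower in Mbd4 KO cells. In the list of Ena/VASP, alpha-actinin and related partners, 2 of 11 measured genes fell and 0 rose, where limma called 0.955% of all clusters lower and 0.431% higher. Of the 11, 4 had an unadjusted p under 0.05 in limma, as 13.8% of all clusters did. The median difference of the list was 0.01 (log2), beside 0.02 over all genes.

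Evl, the Ena/VASP-like gene expressed in blood cells, had 7.93 and 7.85 in the Mbd4 KO arrays, against 8.58 and 8.68 in the control arrays, and both Mbd4 KO values were lower than both control values. With a difference of -0.74 ± 0.074 (log2, SE), Evl fell 1.67-fold (limma adjusted p = 0.0133).

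Enah, the mammalian counterpart of Drosophila enabled, had 8.89 and 8.80 in the Mbd4 KO arrays, against 9.49 and 9.53 in the control arrays. Here too the Mbd4 KO values were the lower ones. Enah fell by 0.67 (SE 0.071; limma adjusted p = 0.0155), 1.59-fold. Neither call held with any 1 array left out (adjusted p = 0.0669 to 0.106 for Evl and 0.0882 to 0.116 for Enah) or with all clusters of the table in the fit (0.134 and 0.142). Evl lies on chromosome 12 and Enah on chromosome 1.

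Vasp and Actn1 are given beside them although their naming followed sight of the values. Vasp had 9.35 and 9.37 in the Mbd4 KO arrays, against 9.51 and 9.57 in the control arrays, a difference of -0.18 ± 0.068 (log2, SE; limma adjusted p = 0.329). Actn1, an alpha-actinin gene, had 9.33 and 9.44 in the Mbd4 KO arrays, against 9.74 and 9.68 in the control arrays, a difference of -0.33 ± 0.074 (limma adjusted p = 0.127). In both the groups did not overlap, and neither passed except Actn1 with an intensity trend (0.0124).

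In the list of focal adhesion proteins, 1 of 23 measured genes rose and 0 fell, beside 0.431% of all clusters called higher and 0.955% called lower. Of the 23, 2 had an unadjusted p under 0.05 in limma, as 13.8% of all clusters did. The median difference was -0.03 (log2), against 0.02 over all genes. Vcl, the gene of vinculin, which couples talin and alpha-actinin to actin under tension, had 7.89 and 7.87 in the Mbd4 KO arrays, against 7.42 and 7.32 in the control arrays. Both Mbd4 KO values lay above the control values, and Vcl rose by 0.51 ± 0.072 (log2, SE; limma adjusted p = 0.0415), 1.42-fold. The call was lost with any 1 array left out (adjusted p = 0.145 to 0.219), with quantile normalization (0.0569), with the replicate block (0.0745) and with all clusters of the table (0.187). The genes of talin, paxillin, integrin-linked kinase, parvins and kindlins in this list were not called.

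In the list of SRF and its MRTF cofactors, which switch on actin cytoskeleton genes, and their targets, 1 of 16 measured genes rose and 1 fell, beside the same 0.431% and 0.955% of all clusters. Of the 16, 6 had an unadjusted p under 0.05 in limma, as 13.8% of all clusters did, and nothing particular to the list is read from that count. The median difference was -0.10 (log2), against 0.02 over all genes. The rise was that of Vcl. Cnn2, a calponin gene, had 9.56 and 9.44 in the Mbd4 KO arrays, against 10.37 and 10.15 in the control arrays. Its groups did not overlap, and it fell by 0.76 (log2; SE 0.097; limma adjusted p = 0.0314), 1.69-fold. That call too was lost with any 1 array left out (adjusted p = 0.0655 to 0.177) and with all clusters of the table (0.187).

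Mrtfb, an SRF cofactor gene named here after its values were seen, lies on chromosome 16 and had 3 clusters. All 3 were lower in Mbd4 KO cells, with differences of -0.41, -0.33 and -0.30 (log2), and none passed (limma adjusted p = 0.0899, 0.189 and 0.166). These lie close to the median of -0.28 of the brighter clusters of the chromosome.

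In the Hippo pathway, which the LIMD1 branch restrains at LATS, limma called 0 of 21 measured genes, beside 1.39% of all clusters. An unadjusted p under 0.05 was found for 4 genes, and for 13.8% of all clusters. The median difference was -0.01 (log2), against 0.02 over all genes. Mob1b, a LATS activator gene, had 9.56 and 9.39 in the Mbd4 KO arrays, against 9.86 and 9.79 in the control arrays, a difference of -0.35 (adjusted p = 0.137). Tead1, a gene of the DNA-binding partners of YAP, had clusters with differences of 0.25 and 0.03 (adjusted p = 0.192 and 0.929). So neither Hippo gene with the largest difference passed, although Mob1b did with an intensity trend (0.012).

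Among PDLIM and other LIM adaptors, limma called 0 of 16 measured genes, beside 1.39% of all clusters. An unadjusted p under 0.05 was found for 7 genes, and for 13.8% of all clusters. The median difference of the list was -0.06 (log2), against 0.02 over all genes, and nothing particular to the list is read from these counts. Lmo7, which encodes a LIM protein that binds afadin and alpha-actinin, had 7.87 and 8.01 in the Mbd4 KO arrays, against 8.41 and 8.62 in the control arrays. Its difference was -0.57 ± 0.098 (SE; limma adjusted p = 0.0647). Lasp1, a zyxin-binding actin adaptor gene, had 9.76 and 9.84 in the Mbd4 KO arrays, against 10.22 and 10.12 in the control arrays, a difference of -0.37 ± 0.074 (adjusted p = 0.0972). The groups overlapped in neither gene. Both passed with an intensity trend (limma adjusted p = 0.00383 and 0.00404) and without the dimmest 30% of clusters (0.0266 and 0.0398). Neither passed with the replicate block (0.0548 and 0.146), quantile normalization (0.0555 and 0.0985) or all clusters of the table (0.247 and 0.268). The same held with a robust prior (0.0692 and 0.102) and with cyclic loess normalization (0.0524 and 0.0883).

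**Figure D5:**
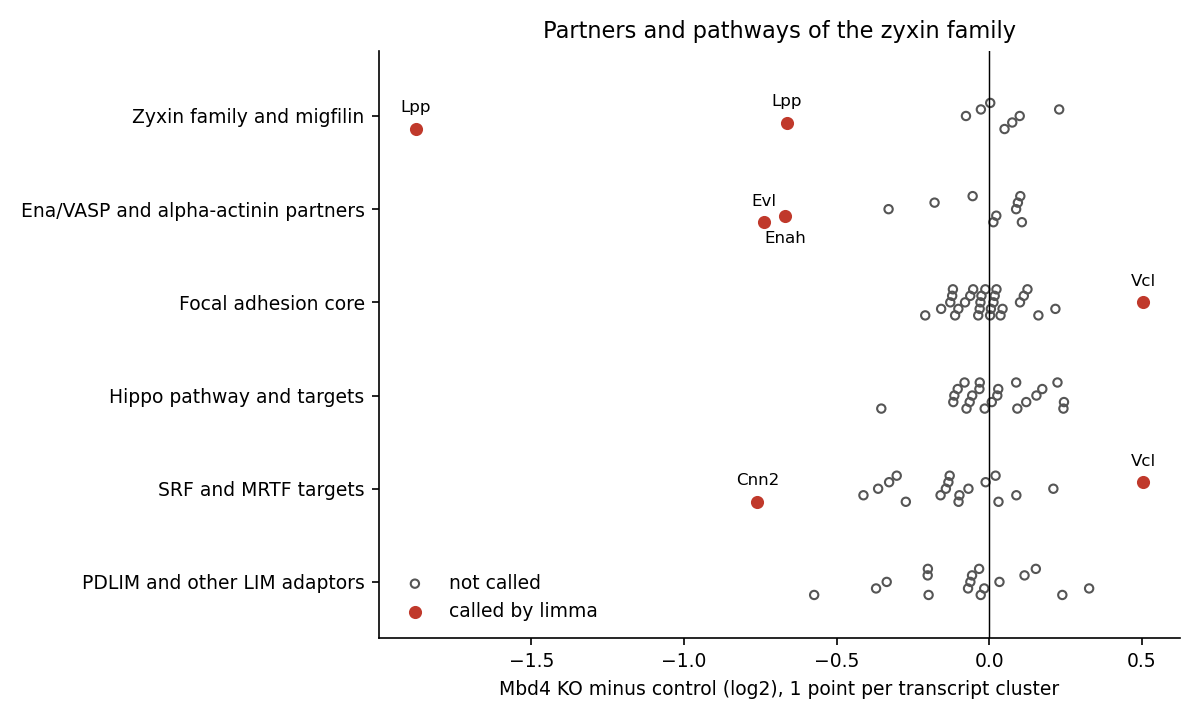
Differences (Mbd4 KO minus control, log2) of every cluster in the family and in 5 lists of partners and pathways, 1 point per cluster, with clusters called by limma filled and named. Evl (-0.74) and Enah (-0.67) fell among the partners, Cnn2 fell (-0.76) and Vcl rose (0.51) elsewhere, and the filled Lpp points were chosen for this contrast.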

How the data were processed

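The deposited log2 values, 1 per transcript cluster and array, come from the authors' RMA processing (per the submitters' processing notes), which corrects background, normalizes by quantiles and summarises probes. The sources used here give no RMA version. That the scale is log2 was inferred from the range of the values. Of 35556 clusters, 21789 had exactly 1 gene symbol in the platform's table, 1621 several and 12146 none in that table; the first were tested and named. Chromosomes and gene order came from RefSeq (GRCm38.p6), in which 91 tested clusters found no chromosome. As the sources used here name no build for the array, the only coordinates printed are those of the RefSeq promoter windows and microRNAs.

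Groups followed the titles. The contrast of Mbd4 KO with control arrays used limma 3.58.1 under R 4.3.3 (lmFit, then eBayes; two-sided, Benjamini-Hochberg over all tested clusters, threshold 0.05), without filter or further normalization. SE and 95% intervals are limma's moderated ones (2 residual and 4.00 prior degrees of freedom). The number of arrays limits the precision. The fit was tested on simulated data with 200 changed clusters. It called 19% of the changes of 0.5 (log2) and 91% of the changes of 1, with 5 false calls. A cluster that was not called may therefore hold a change of 0.5. The members and lists were chosen with earlier results of these data known. Genes were named by rule: all family clusters, Mbd4, the passing members of each list or else its 2 largest differences, 5 neighbours of Lpp on either side and the 5 chromosome 16 clusters nearest in pattern. Outside this rule, Vasp, Actn1, Mrtfb and Mir28a were named after their values had been seen. A list's median uses the brightest cluster of each gene. Of the listed genes, 3 of focal adhesions, 1 of the Hippo pathway, 1 SRF target, 1 B cell marker and 1 T cell marker were not analysed here. Same-numbered arrays had correlated deviations of r = 0.069 across clusters, with 2 pairs, and were not treated as pairs. Alternatives were a replicate block, each array left out, an intensity trend, a robust prior, cyclic loess or quantile normalization, leaving out the dimmest 30% of clusters, and all clusters of the table. Figures were drawn with matplotlib 3.10.9.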

Additional observations from a re-analysis of the deposited data

How the results depend on the processing

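Over all clusters, limma called 302 as reported, 159 with the replicate number as a block (replicate block), 1121 with an intensity trend, 640 without the dimmest 30% of clusters, 22 with all clusters of the table and 65 to 75 with any 1 array left out. The member clusters called, both of Lpp in the reported fit, numbered 1 of 8 with the replicate block and 0 with all clusters of the table. Since Lpp was chosen for this contrast, nothing is read from these member counts. A robust prior, quantile and cyclic loess normalization left both counts within 1.5 times. The same-numbered arrays share only a number. The distance of Lpp cluster 10434782 from the chromosome 16 median, -0.52 as reported, was -0.39 against the brighter clusters of the chromosome. For small differences that limma did not call, leaving out 1 array turned the sign: Trip6 ranged from -0.017 to 0.024, Limd1 from -0.11 to 0.0545, Fblim1 from -0.10 to 0.30, Wtip from -0.038 to 0.14, the Tead1 cluster with the smaller difference from -0.076 to 0.14 and Mir28a from -0.16 to 0.21 (log2), and Lpp cluster 10434802, given with no test, from -0.07 to 0.22. Trip6 was -0.0074 with quantile and -0.0205 with cyclic loess normalization. The cause of these changes was not tested. Without raw intensities, how far a cluster's signal exceeded background is not known.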
